A study of Mus musculus with 24 samples.

Results

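The genes described here mark successive steps from a neural progenitor to a myelinating oligodendrocyte. They are 4 transcription factors (Olig1, Olig2, Sox10 and Nkx2-2), 2 surface proteins of oligodendrocyte precursors (Pdgfra and Cspg4), the receptor Gpr17, the early myelination marker Bcas1 and the myelin protein Mbp. They were chosen by symbol, as a list of the lineage, and all 9 listed symbols were found among the 14922 genes of the deposited table. Their RNA levels were compared over 4 groups of mouse neural stem cells (NSCs).

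The NSCs were primary lines grown from the cortex of female E14.5 embryos, kept as adherent cultures for fewer than 10 passages, and each library was made from poly(A) RNA. FVB_WT cells were Smchd1+/+ on the FVB/NJ background and FVB_MD43 cells were Smchd1 MommeD43/MommeD43 on the same background, where the allele arose by chemical mutagenesis. B6GFP_WT and B6GFP_MD43 cells were C57BL/6J lines with a GFP tag fused to Smchd1, and in the latter the MommeD43 change had been introduced by editing. The labels give the B6GFP_WT genotype as Smchd1+/+, while the study describes it as homozygous for the fusion. The strain, the tag and the origin of the allele therefore changed together between FVB and B6GFP and cannot be told apart. FVB_WT was measured in 6 libraries from 5 lines and B6GFP_WT in 6 from 4, while FVB_MD43 and B6GFP_MD43 each had 5 from 4, after 2 of the 24 labelled columns were left out because they equalled the mean of their group mates. Lines carry separate numbers in the labels and were the replicates for group means, with the second library of a line averaged in as a technical repeat. Whether each line came from its own embryo or litter is not given in the labels, and some lines share a stem across genotypes (23.2 and 23.7 of B6GFP_WT with 23.5 of B6GFP_MD43, 38.5 with 38.1, and 17 of FVB_WT with 17b of FVB_MD43). The tests used all 22 libraries with an estimated correlation of 0.0827 within lines. Technical repeats thus counted almost as separate replicates, and p-values measure mostly the spread between libraries.

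Oligodendrocyte precursors arise from progenitors that switch on OLIG2, and in the embryo they come in waves, first from ventral and later from dorsal forebrain. OLIG1, SOX10 and NKX2-2 act with OLIG2 to carry precursors towards myelination, PDGFRA receives the platelet-derived growth factor that keeps precursors dividing, and GPR17 and BCAS1 mark cells that have committed but do not yet make compact myelin. NSCs cultured with EGF and FGF are known to express OLIG1 and OLIG2 while they still divide as stem cells.

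Values are log2 CPM, counts scaled to a common library size (CPM) on the log2 scale, already corrected for batch by the authors. Depth was known only relative to the deepest library and was 0.526 to 0.893 in batch 1, which held both strains, 0.137 to 0.19 in batch 2, which held FVB only, and 0.435 to 1 in batch 3, which held B6GFP only. All 10 NSC markers examined had a mean above 1 CPM. So did all but 1 of 9 neuronal and all but 3 of 7 astrocyte markers, so this level does not set NSC markers apart. Of 8 microglial markers 7 were not in the table, and the other, P2ry12, passed 1 CPM in 15 of the 22 libraries. Of 6 endothelial markers 5 had a mean below 1 CPM. The library of B6GFP_MD43 replicate 2 in batch 3 stood apart, with the highest value of the 22 libraries for 7 of 9 neuronal markers, among them Dcx at 5.20 log2 CPM against -3.35 to 2.32 in the others. FVB_WT replicate 2 in batch 2 had the highest value for 2 of 7 astrocyte markers, and B6GFP_WT replicate 4 in batch 3 had Gfap at 2.72 against -2.33 to -0.41 in its group and the lowest value for 2 of 10 NSC markers. A gene with no reads was listed at a median of -3.65 log2 CPM (range -5.10 to -1.13), over 87 genes tied at the lowest value in all batches. Values near that level carry little information.

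Olig1 and Olig2 were among the most abundant RNAs of these cells. Olig1 ranked 44th of 14922 genes by its mean over libraries (10.01 log2 CPM) and Olig2 ranked 132nd (9.19 log2 CPM), so that 99.7% and 99.1% of genes were lower. Both genes lie on the plus strand of chromosome 16, with Olig2 at 91225550 to 91228677 and Olig1 at 91269769 to 91271939 (GRCm38.p6), 41.1 kb apart. In the same build Sox10 spans 79154913 to 79164490 on chromosome 15 (minus strand), Nkx2-2 spans 147176485 to 147195434 and Bcas1 170343973 to 170427911 on chromosome 2 (both minus), Pdgfra 75151322 to 75198206 on chromosome 5 (plus) and Cspg4 56865104 to 56899870 on chromosome 9 (plus), while Gpr17 and Mbp are on chromosome 18. Values are totals over the exons of each gene. Cspg4 was higher than 70.7% of genes, Bcas1 than 54.3%, Pdgfra than 46.6% and Nkx2-2 than 36.7%. Sox10, Gpr17 and Mbp were higher than 14.4%, 12.8% and 8.07% of genes, and passed 1 CPM in 10, 8 and 10 of the 22 libraries.

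The ranks above were by log2 CPM, with no account of exon length. To compare the members with each other, levels were taken per kilobase of exon, as log2 CPM per kb. Over all lines Bcas1 (2.95) lay above Cspg4 (2.16) and Nkx2-2 (1.82) above Pdgfra (0.92) on this scale, the reverse of their ranks. In FVB_WT the order was Olig1 (8.81), Olig2 (7.73), Bcas1 (3.92), Nkx2-2 (1.90), Cspg4 (1.87), Pdgfra (1.04), Sox10 (-1.15), Gpr17 (-1.19) and Mbp (-1.86). Olig1 was above Olig2 by 1.08 ± 0.156 (SD, n = 5 lines) and Olig2 above Bcas1 by 3.82 ± 0.241, each in all 5 lines. Nkx2-2 and Cspg4 were not separated by more than their spread (0.031 ± 0.854, Nkx2-2 higher in 3 of 5 lines), nor were Sox10 and Gpr17 (0.032 ± 1.55, Sox10 higher in 3 of 5 lines). In B6GFP_WT Cspg4 took the third place at 2.69 log2 CPM per kb and Bcas1 fell behind Nkx2-2 to the fifth, although the gaps from Cspg4 to Nkx2-2 (0.35 ± 0.909) and from Nkx2-2 to Bcas1 (0.32 ± 0.960, n = 4 lines) were within their spread. Mbp had the lowest mean in all 4 groups, but its gap to Gpr17 was within the spread in FVB_MD43 (0.30 ± 1.35, Gpr17 higher in 2 of 4 lines) and B6GFP_MD43 (1.54 ± 1.95, in 3 of 4 lines).

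**Figure D1:**
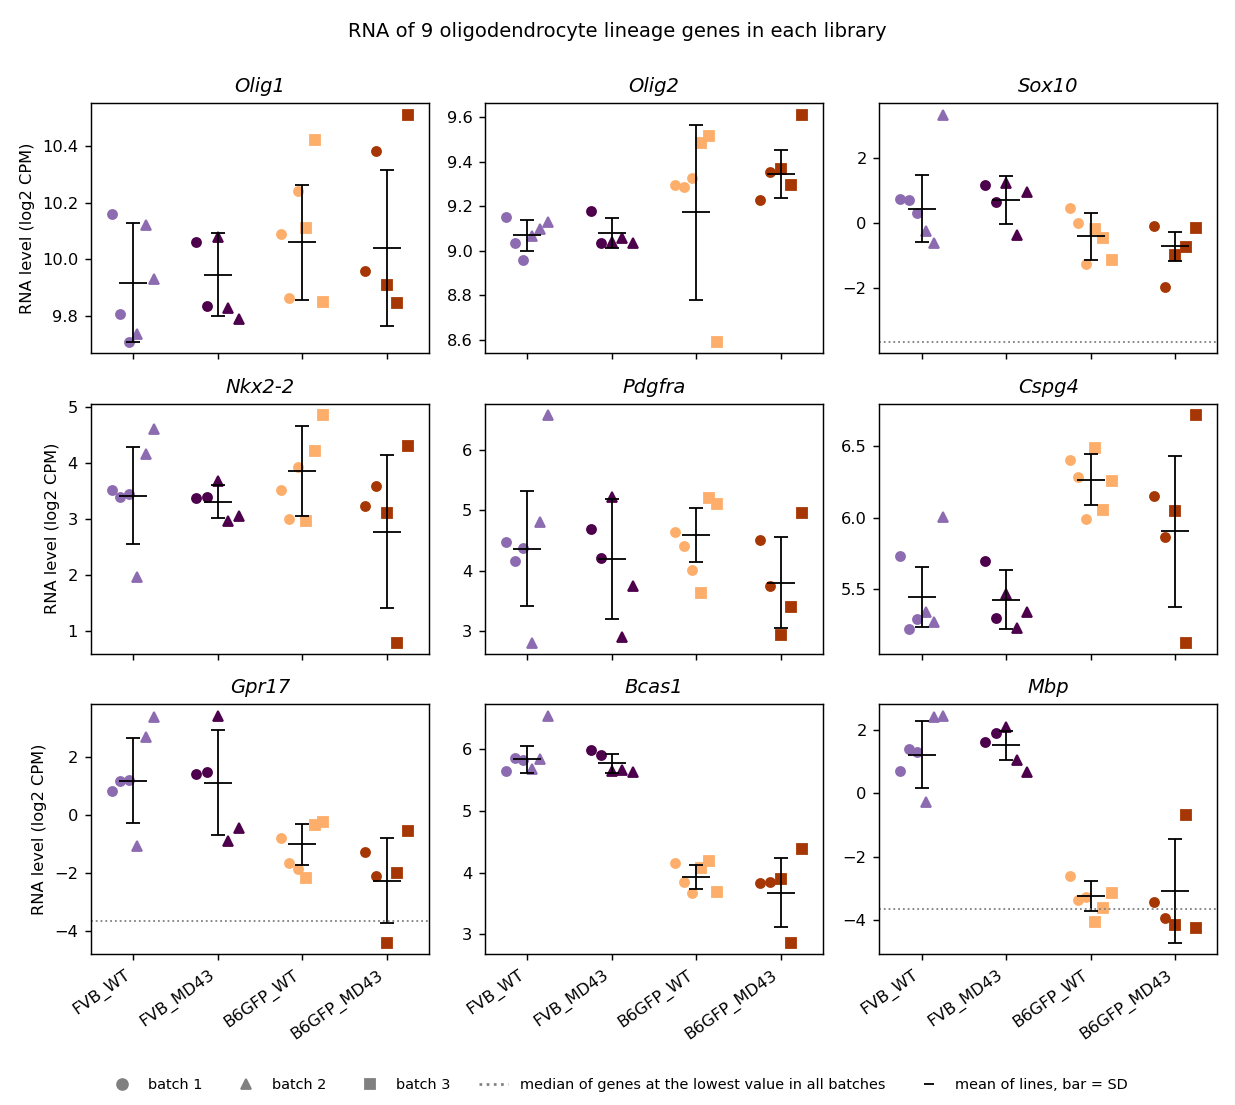
RNA level of each gene (log2 CPM, vertical axis) in the 22 libraries, by group (horizontal axis). Point shapes mark the batch, the black bar is the mean of lines with its SD, and the dotted line is the median of genes at the lowest value in all batches. Bcas1 and Mbp separate the strains completely, while Pdgfra, Nkx2-2 and Gpr17 spread widely in batches 2 and 3.

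The sequences upstream of Olig2 and Cspg4 are shown because these were the only 2 members with a usable window. Whether their motifs bear on RNA levels was not tested. The RefSeq promoter table (GRCm38.p6) held 4 of the 9 genes, and the windows of Pdgfra and Nkx2-2 lay inside the annotated gene, so 2 are printed, each stopping before the first annotated exon. The Olig2 window (chr16:91225300-91225456, plus strand, 157 bases) and the Cspg4 window (chr9:56864854-56865032, plus strand, 179 bases) read 5′ to 3′ as follows, with capitals marking the CCAAT box (CCAAT, on the printed strand or as ATTGG) and the GC box (GGGCGG, or CCGCCC).
Olig2: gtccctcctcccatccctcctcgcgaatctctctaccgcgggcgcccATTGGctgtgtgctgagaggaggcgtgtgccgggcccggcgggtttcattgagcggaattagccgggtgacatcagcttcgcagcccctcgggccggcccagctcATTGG
Cspg4: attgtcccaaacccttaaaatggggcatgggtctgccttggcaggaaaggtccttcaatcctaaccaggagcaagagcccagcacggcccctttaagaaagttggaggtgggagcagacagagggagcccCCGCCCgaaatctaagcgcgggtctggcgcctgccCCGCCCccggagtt
The Olig2 window held 2 CCAAT boxes, and 21% of the 32851 promoters in the table held at least 1 in a window of the same length and position. The Cspg4 window held 2 GC boxes, and 20.9% of promoters held at least 1 in a window of its length and position. Neither window held the E-box CANNTG, the motif of the basic helix-loop-helix family to which OLIG1 and OLIG2 belong (50.8% of promoters at the length of the Olig2 window and 55.3% at that of Cspg4), nor the SOX motif ACAAAG on either strand (10.8% and 12.2%). No motifs overlapped.

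MommeD43 was compared with wild type in each strain to ask whether the altered SMCHD1 changes RNA levels of the lineage. No member passed in FVB (0 of 9, where 0.0737% of all genes did, 0.0201% higher and 0.0536% lower) or in B6GFP (0 of 9, where 0% of all genes did), by limma with Benjamini-Hochberg adjustment over all genes. Of the 9 members 0 had an unadjusted p under 0.05 in either strain, where 1024 of 14922 genes did in FVB and 319 in B6GFP. The count passing after adjustment stayed at 0 in each of 8 other settings and in each of 17 fits that left out a line. The members' median fitted change on the log2 scale was 0.036 in FVB and -0.23 in B6GFP, beside medians of 0.013 and 0.011 over all genes. Within batches the FVB changes lay between -0.041 and 0.46 in batch 1, with 8 of 9 above 0, and between -1.95 and -0.057 in batch 2, with all 9 below 0, while those in B6GFP lay between -0.94 and 0.13 in batch 1 and between -0.16 and 0.18 in batch 3, and none of these passed.

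The width of the intervals differed between the members. For Olig2 the fitted change was 0.036 (95% interval -0.063 to 0.14) in FVB and -0.025 (-0.15 to 0.10) in B6GFP. For Olig1 it was 0.075 (-0.10 to 0.26) and 0.031 (-0.20 to 0.27). Changes of either gene beyond these bounds lie outside the 95% intervals of this weighted fit. For Olig2 in B6GFP the bounds depend on the weights. The change was 0.13 without quality weights and 0.11 within batch 3, both above the upper bound, and -0.010 within batch 1. In the remaining settings it lay between -0.048 (1 value per line) and 0.067 (all 24 columns). For Bcas1 the change was 0.0066 (-0.22 to 0.23) and -0.11 (-0.40 to 0.18), and for Cspg4 0.064 (-0.18 to 0.31) and -0.23 (-0.55 to 0.085). The remaining members had wider intervals. For Pdgfra the interval ran from -0.74 to 0.68 in FVB and from -1.17 to 0.69 in B6GFP, and for Gpr17 from -1.07 to 1.11 and from -1.91 to 0.93. Sox10 changed by 0.17 (-0.63 to 0.98) and -0.59 (-1.64 to 0.46), Nkx2-2 by -0.020 (-0.55 to 0.52) and -0.093 (-0.79 to 0.60), and Mbp by 0.39 (-0.27 to 1.05) and -0.37 (-1.22 to 0.49).

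In B6GFP the group means lay further apart than the fitted changes for 6 members (Nkx2-2, Gpr17, Pdgfra, Cspg4, Bcas1 and Olig2). For Olig2 the means (9.17 log2 CPM in B6GFP_WT and 9.34 in B6GFP_MD43) also lay in the opposite direction to the fitted -0.025. The gap between means and fit was greatest for Gpr17 and Nkx2-2 among these. Nkx2-2, a homeobox factor of ventral progenitors and differentiating precursors, was 3.86 ± 0.805 log2 CPM in B6GFP_WT (SD, n = 4 lines) and 2.77 ± 1.37 in B6GFP_MD43 (n = 4). In B6GFP_MD43 its 5 libraries read 0.79, 3.11, 3.23, 3.59 and 4.31, and the lowest was the library with high neuronal markers. That library had a quality weight of 0.158 in the fit and B6GFP_WT replicate 4, which had the highest Nkx2-2 of its group at 4.87, had a weight of 0.101, the lowest of all 22. Without quality weights the changes in B6GFP were -0.89 for Nkx2-2, -0.68 for Pdgfra and -1.05 for Gpr17, each with an adjusted p = 0.995.

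The difference of the MommeD43 effect between strains was also tested, and 0 of 9 members passed (0% of all genes). An unadjusted p under 0.05 was found for 0 members and for 459 of 14922 genes. The largest fitted differences, B6GFP minus FVB, were -0.76 for Sox10 (95% interval -2.09 to 0.56) and -0.76 for Mbp (-1.83 to 0.32). For Olig2 the difference was -0.061 (-0.22 to 0.10).

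**Figure D2:**
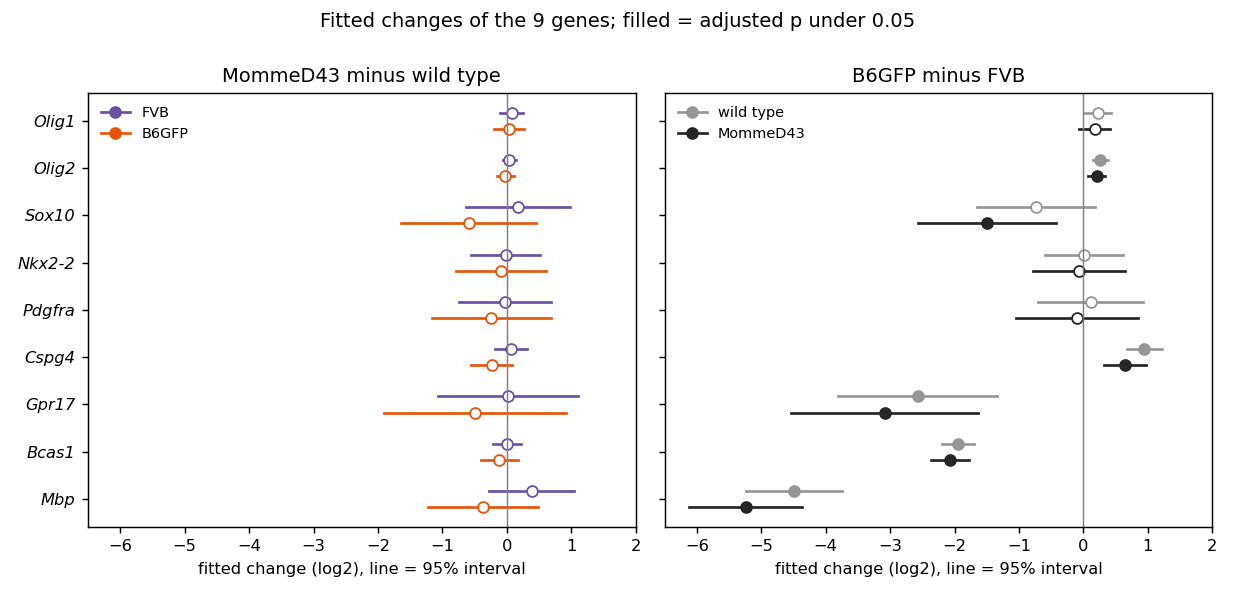
Fitted change of each gene on the log2 scale (horizontal axis) with its 95% interval, for MommeD43 minus wild type in each strain (left) and B6GFP minus FVB in each genotype (right). Every interval on the left spans 0, while on the right Gpr17, Bcas1 and Mbp lie far below 0 and Cspg4 above it in both genotypes.

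The strains were compared within each genotype, as the widest contrast these libraries offer for the lineage. In wild type 5 of 9 members passed, 2 higher and 3 lower in B6GFP, where 41.1% of all genes passed (17.9% higher and 23.2% lower). In MommeD43 6 of 9 passed, 2 higher and 4 lower, where 34.4% of all genes did (14.7% higher and 19.6% lower). With so many genes differing between the strains, these counts are no result about the members, and the values of each follow. The comparison rests on batch 1, the only batch with both strains, with 3, 2, 3 and 2 usable libraries of FVB_WT, FVB_MD43, B6GFP_WT and B6GFP_MD43. Without quality weights 2 of 9 members passed in each genotype, Bcas1 and Mbp, and the share of all genes passing was 8.44% in wild type and 6.82% in MommeD43. After centring libraries on their medians, the share of calls that were higher in B6GFP was 58.7% in wild type and 57.1% in MommeD43, in place of 43.7% and 42.9%.

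Among the transcription factors Olig2 was slightly higher in B6GFP. It read 8.96, 9.08 and 9.15 log2 CPM at the lowest, median and highest library of FVB_WT and 8.59, 9.31 and 9.52 in B6GFP_WT. In FVB_MD43 the libraries read 9.03, 9.03, 9.04, 9.06 and 9.18 and in B6GFP_MD43 9.23, 9.30, 9.35, 9.37 and 9.61. The MommeD43 groups did not overlap, and the wild-type groups overlapped only through B6GFP_WT replicate 4, the lowest library of all. In batch 1 alone the MommeD43 libraries read 9.03 and 9.18 in FVB and 9.23 and 9.35 in B6GFP. The fitted change was 0.26 (SE 0.0543, adjusted p = 0.000564) in wild type and 0.20 (SE 0.0639, adjusted p = 0.0175) in MommeD43, and within batch 1 it was 0.29 and 0.18. Without quality weights the changes were 0.13 (adjusted p = 0.673) and 0.26 (adjusted p = 0.408), while over the other 7 settings the adjusted p was 9.14e-05 to 0.00545 and 8.86e-24 to 0.0425. The lowest value in MommeD43 came from the fit of all 24 columns, in which the 2 copied means enter as libraries, and this holds for the lowest values of Cspg4 and Gpr17 in MommeD43 given below. In MommeD43 it was 0.11 without FVB_MD43 replicate 2 (adjusted p = 0.145).

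Olig1, the neighbour of Olig2, did not pass. The wild-type means were 9.92 ± 0.208 log2 CPM for FVB (SD, n = 5) and 10.06 ± 0.202 for B6GFP (n = 4). Those of MommeD43 were 9.95 ± 0.145 and 10.04 ± 0.275 (n = 4 each), and the libraries of the strains overlapped in both genotypes. The fitted strain change was 0.22 (SE 0.098, adjusted p = 0.0759) in wild type and 0.18 (SE 0.115, adjusted p = 0.245) in MommeD43. With libraries centred on their median it was 0.31 in wild type and passed (adjusted p = 0.0142, the lowest of the 8 other settings, whose highest was 0.649). It also passed in wild type without B6GFP_WT replicate 2 (0.34, adjusted p = 0.0296) or FVB_WT replicate 1 (0.25, adjusted p = 0.0390), and in MommeD43 without B6GFP_MD43 replicate 1 (0.45, adjusted p = 0.00146) or B6GFP_WT replicate 2 (0.36, adjusted p = 0.0209).

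Sox10, which holds cells in the lineage and drives myelin genes, was near 1 CPM. It read -0.59, 0.52 and 3.35 log2 CPM at the lowest, median and highest library of FVB_WT and -1.24, -0.31 and 0.46 in B6GFP_WT. FVB_MD43 libraries read -0.36, 0.67, 0.97, 1.17 and 1.23 and B6GFP_MD43 libraries -1.95, -0.97, -0.73, -0.14 and -0.092, so the MommeD43 groups overlapped through a single FVB library. The fitted change was -0.73 (SE 0.440, adjusted p = 0.195) in wild type and -1.50 (SE 0.517, adjusted p = 0.0295) in MommeD43. The latter missed the threshold on the log2(CPM + 1) scale (-0.67, adjusted p = 0.0831), without quality weights (-1.45, adjusted p = 0.336) and without FVB_MD43 replicate 1 (-1.42, adjusted p = 0.0532). Nkx2-2 changed by 0.0076 (95% interval -0.60 to 0.61, adjusted p = 0.988) in wild type and -0.066 (-0.78 to 0.65, adjusted p = 0.906) in MommeD43.

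The surface proteins of precursors differed from each other. Cspg4, the NG2 proteoglycan that precursors share with pericytes, read 5.22, 5.31 and 6.00 log2 CPM at the lowest, median and highest library of FVB_WT and 5.99, 6.27 and 6.49 in B6GFP_WT. FVB_MD43 libraries read 5.22, 5.30, 5.33, 5.46 and 5.70 and B6GFP_MD43 libraries 5.12, 5.87, 6.05, 6.16 and 6.72. The wild-type groups touched only where the highest FVB library, FVB_WT replicate 2 in batch 2, met the lowest of B6GFP, and the MommeD43 groups overlapped through the library with high neuronal markers. Cspg4 was higher in B6GFP by 0.95 (SE 0.134, adjusted p = 1.07e-05) in wild type and by 0.65 (SE 0.158, adjusted p = 0.00311) in MommeD43, and by 0.98 and 0.51 within batch 1. Without quality weights the changes were 0.78 (adjusted p = 0.0640, against 3.21e-06 to 4.99e-05 in the other 7 settings) and 0.53 (adjusted p = 0.345, against 9.70e-22 to 0.00256), and without FVB_MD43 replicate 2 the MommeD43 value was 0.34 (adjusted p = 0.0759).

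Of the markers for pericytes and meningeal fibroblasts, which also carry NG2, 4 of 9 were not in the table and the other 5 had a mean below 1 CPM. Their summed level was -0.092 to 0.99 log2 CPM in FVB_WT, 0.48 to 1.51 in FVB_MD43, -1.06 to 0.18 in B6GFP_WT and -0.67 to 2.09 in B6GFP_MD43. Their part in the Cspg4 difference was not tested.

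Pdgfra, the receptor through which precursors are kept in division, did not pass in either genotype. It read 2.81, 4.42 and 6.58 log2 CPM at the lowest, median and highest library of FVB_WT and 3.62, 4.52 and 5.21 in B6GFP_WT. FVB_MD43 libraries read 2.91, 3.74, 4.22, 4.69 and 5.21 and B6GFP_MD43 libraries 2.93, 3.40, 3.75, 4.51 and 4.96, so the groups covered almost the same range. The fitted change was 0.11 (95% interval -0.70 to 0.92, adjusted p = 0.851) in wild type and -0.098 (-1.05 to 0.85, adjusted p = 0.893) in MommeD43. Changes of close to a log2 unit therefore remain within the interval.

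Bcas1, which marks precursors as they begin to form myelin, showed the clearest separation. It read 5.65, 5.83 and 6.54 log2 CPM at the lowest, median and highest library of FVB_WT and 3.67, 3.96 and 4.19 in B6GFP_WT. FVB_MD43 libraries read 5.63, 5.65, 5.66, 5.90 and 5.99 and B6GFP_MD43 libraries 2.86, 3.83, 3.85, 3.90 and 4.39. The lowest of the 11 FVB libraries was thus more than 1 log2 unit above the highest of the 11 B6GFP libraries. Only batch 1 held both strains, and there the lowest FVB library read 5.65 and the highest B6GFP library 4.15. The fitted change was -1.95 (SE 0.121, adjusted p = 7.62e-11) in wild type and -2.07 (SE 0.142, adjusted p = 5.65e-10) in MommeD43, and within batch 1 it was -1.89 and -2.11. It passed in all 17 fits that left out a line and in all 8 other settings, in both genotypes. Reads of Bcas1 may include those of Bcas1os1 and Bcas1os2, antisense genes that share 440 and 34 exonic bases with it, since use of strand in the counting is not given in the sources used here.

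Gpr17, a receptor confined to committed precursors and newly formed oligodendrocytes, was also lower in B6GFP. It read -1.05, 1.20 and 3.36 log2 CPM at the lowest, median and highest library of FVB_WT and -2.17, -1.22 and -0.23 in B6GFP_WT. FVB_MD43 libraries read -0.88, -0.45, 1.40, 1.48 and 3.43 and B6GFP_MD43 libraries -4.40, -2.10, -2.001, -1.27 and -0.56, and the groups overlapped in each genotype. All 11 B6GFP libraries were below 1 CPM. The fitted change was -2.57 (SE 0.594, adjusted p = 0.00165) in wild type and -3.08 (SE 0.699, adjusted p = 0.00182) in MommeD43, and -2.49 and -3.12 within batch 1. On the log2(CPM + 1) scale it was -1.29 and -1.39 and still passed. Without quality weights it was -2.49 and -3.29 and missed the threshold (adjusted p = 0.147 and 0.0947, against 0.000388 to 0.00671 and 2.34e-23 to 0.0104 in the other 7 settings).

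Mbp, the myelin basic protein, was expressed at a low level in FVB and lay at the bottom of the scale in B6GFP. It read -0.28, 1.37 and 2.46 log2 CPM at the lowest, median and highest library of FVB_WT and -4.06, -3.32 and -2.60 in B6GFP_WT. FVB_MD43 libraries read 0.68, 1.05, 1.64, 1.91 and 2.11 and B6GFP_MD43 libraries -4.25, -4.14, -3.94, -3.43 and -0.67. The groups did not overlap in either genotype, and in batch 1 alone FVB read 0.70 to 1.91 and B6GFP -3.94 to -2.60. All B6GFP libraries but the highest lay between -4.25 and -2.60, around the level of a gene with no reads. That highest value came from the B6GFP_MD43 library with high neuronal markers. The fitted change was -4.49 (SE 0.358, adjusted p = 3.86e-09) in wild type and -5.24 (SE 0.421, adjusted p = 6.67e-09) in MommeD43, with -4.34 and -5.45 within batch 1. The size of these changes depends on the prior count added before the logarithm and is no bound on the fold, and on the log2(CPM + 1) scale they were -1.70 and -1.99. The call held in all 17 fits that left out a line and in all 8 other settings, in both genotypes. In bulk RNA, fewer cells that express such a gene and less of its RNA per cell cannot be told apart.

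Other genes of the lineage were examined in 4 lists (97 genes, of which 82 were in the table). In MommeD43 against wild type 0 of the 82 passed in either strain, with median changes of 0.080 in FVB and -0.020 in B6GFP. An unadjusted p under 0.05 was found for 5 and 2 of them, beside 1024 and 319 of all 14922 genes. Between the strains 40 were lower and 13 higher in B6GFP in wild type, with a median of -0.38 beside -0.021 over all genes, and 38 were lower and 6 higher in MommeD43, with a median of -0.45 beside -0.028. Over all genes 23.2% were lower and 17.9% higher in wild type and 19.6% and 14.7% in MommeD43, a split that centring the libraries turned towards higher, as given above. The myelin and mature oligodendrocyte genes had the lowest median, -1.18 in wild type and -1.34 in MommeD43, with 11 of 18 lower and 1 higher in each genotype. Of the genes of committed and newly formed oligodendrocytes 10 of 18 were lower and 2 higher in wild type (median -0.37), and of the precursor genes 12 of 24 were lower and 2 higher (median -0.28). In MommeD43 these counts were 10 lower and 1 higher of 18 (median -0.48), and 11 lower and 1 higher of 24 (median -0.42). Growth factor ligands, receptors and brakes of the lineage were balanced in wild type, with 7 lower and 8 higher of 22 (median 0.027). In MommeD43 6 were lower and 3 higher (median 0.078).

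The named genes of these lists included strong changes in both directions. Trf, which encodes the iron carrier transferrin, was higher in B6GFP, with 4.46 ± 0.463 log2 CPM over FVB_WT lines (SD, n = 5) and 8.39 ± 0.947 over those of B6GFP_WT (n = 4; fitted change 3.55, adjusted p = 6.73e-10), and it changed by 4.32 (adjusted p = 5.55e-10) in MommeD43. Car2, a carbonic anhydrase, changed by -1.94 (adjusted p = 5.52e-10) and the matrix gene Matn4 by -3.81 (adjusted p = 8.40e-09) in wild type. Sirt2, a deacetylase of myelin membranes, changed by -0.99 (adjusted p = 3.54e-09) and Myrf, the regulator of myelin gene transcription, by -2.42 (adjusted p = 1.03e-08) in MommeD43. The mean of Matn4 in B6GFP_WT (-1.93 log2 CPM) and that of Myrf in B6GFP_MD43 (-0.094) were below 1 CPM. The size of these 2 changes is therefore no reliable fold. Mag, a myelin adhesion protein, passed in both genotypes (adjusted p = 6.93e-10 and 2.30e-10) but its group means were all below 1 CPM, so no fold is given.

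**Figure D3:**
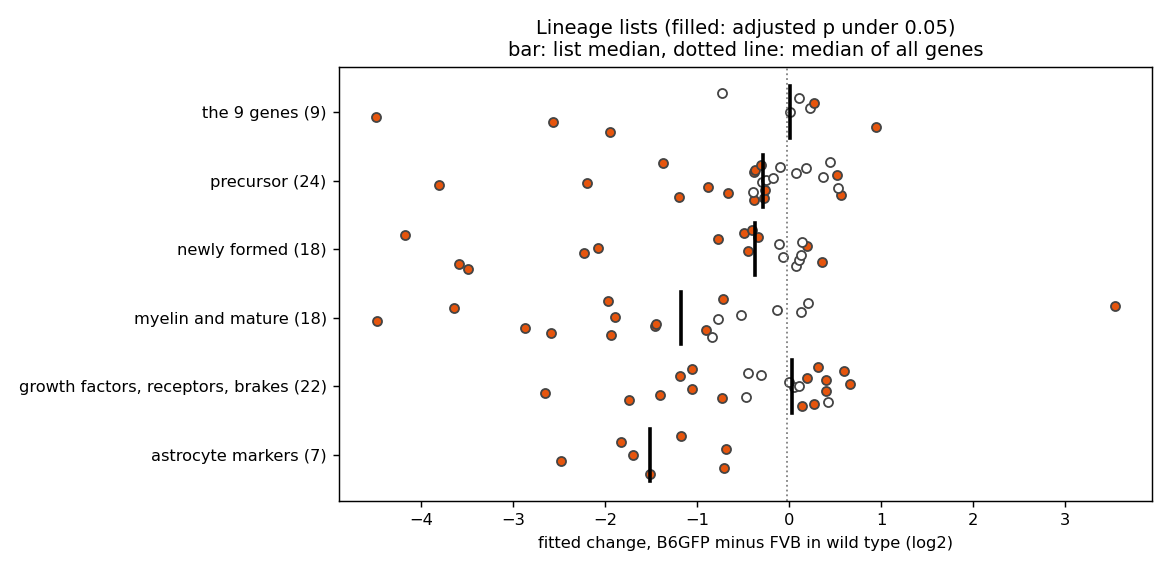
Fitted change of each gene in B6GFP minus FVB in wild type (log2, horizontal axis), with 1 point per gene, for the 9 members, 4 wider lists of the lineage and the astrocyte markers, with the number of genes in parentheses. Black bars are list medians, from 0.027 for the growth factor list to -1.18 for the myelin list and -1.52 for the astrocyte markers, and the dotted line is the median of all genes (-0.021).

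Astrocyte markers moved with the strain in the same direction as Gpr17, Bcas1 and Mbp. All 7 examined were lower in B6GFP in each genotype, with a median change of -1.52 in wild type and -1.64 in MommeD43. Their summed level was 8.90 to 9.41 log2 CPM in FVB_WT and 9.05 to 9.36 in FVB_MD43, against 8.12 to 8.51 in B6GFP_WT and 8.32 to 8.54 in B6GFP_MD43. Gfap, Aqp4 and S100b had a mean below 1 CPM over all libraries. The part of this shift in the strain differences of the lineage genes was not tested. Of 9 neuronal markers 2 were higher and 2 lower in wild type and 3 and 2 in MommeD43, and of 10 NSC markers 2 were higher and 6 lower in wild type (median -0.34) and 2 and 5 in MommeD43 (median -0.38), beside the same shares of all genes.

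The members also varied among libraries of a group, technical repeats included, some far more than most genes. The ranks below are over genes of all levels. Gpr17, Mbp and Sox10 were among the low genes, and the part of their level in these ranks was not tested. The SD within groups over libraries was 1.41 log2 units for Gpr17, 0.972 for Mbp, 0.940 for Sox10, 0.917 for Pdgfra and 0.886 for Nkx2-2, higher than 99.5%, 96.7%, 96.2%, 95.9% and 95.5% of genes. It was 0.346 for Bcas1 and 0.347 for Cspg4 (above 70.0% and 70.1% of genes), and 0.220 for Olig1 and 0.197 for Olig2 (50.1% and 43.8%). For several members this spread was larger in the later batches. For Pdgfra the SD within group and batch was 0.331 in batch 1, 1.57 in batch 2 and 0.976 in batch 3, for Gpr17 it was 0.417, 2.37 and 1.57, and for Nkx2-2 0.292, 1.04 and 1.44. The median gene rose less, from 0.129 in batch 1 to 0.185 and 0.326. Other members took another course. Sox10 had an SD of 0.768 in batch 1, higher than 98.7% of genes, 1.65 in batch 2 and 0.462 in batch 3, Olig1 had 0.221, 0.175 and 0.330, and Olig2 had 0.025 in batch 2, where 1.70% of genes had a lower one. Depth was lowest in batch 2, and its part in this spread was not tested.

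The lines that were sequenced in 2 batches gave a direct view of this. FVB_WT replicate 2 had Pdgfra at 4.15 log2 CPM in batch 1 and 6.58 in batch 2, Sox10 at 0.73 and 3.35, Gpr17 at 1.18 and 3.36, Nkx2-2 at 3.40 and 4.61, and Mbp at 1.42 and 2.46. For Pdgfra the difference of 2.43 exceeded that of 99.8% of genes between the same libraries. In FVB_MD43 replicate 2 Gpr17 was instead lower in batch 2 (1.48 and -0.45), as was Mbp (1.91 and 0.68), while Sox10 was higher (0.67 and 0.97). In B6GFP, Pdgfra went from 4.01 to 5.21 in B6GFP_WT replicate 3 and from 3.75 to 4.96 in B6GFP_MD43 replicate 3, and from 4.41 to 3.62 in B6GFP_WT replicate 2. Over the 5 lines Olig1 differed by 0.045 to 0.24 and Olig2 by 0.0011 to 0.26. For comparison, the SD between the 5 lines of FVB_WT was 0.952 for Pdgfra, 1.46 for Gpr17 and 1.02 for Sox10.

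**Figure D4:**
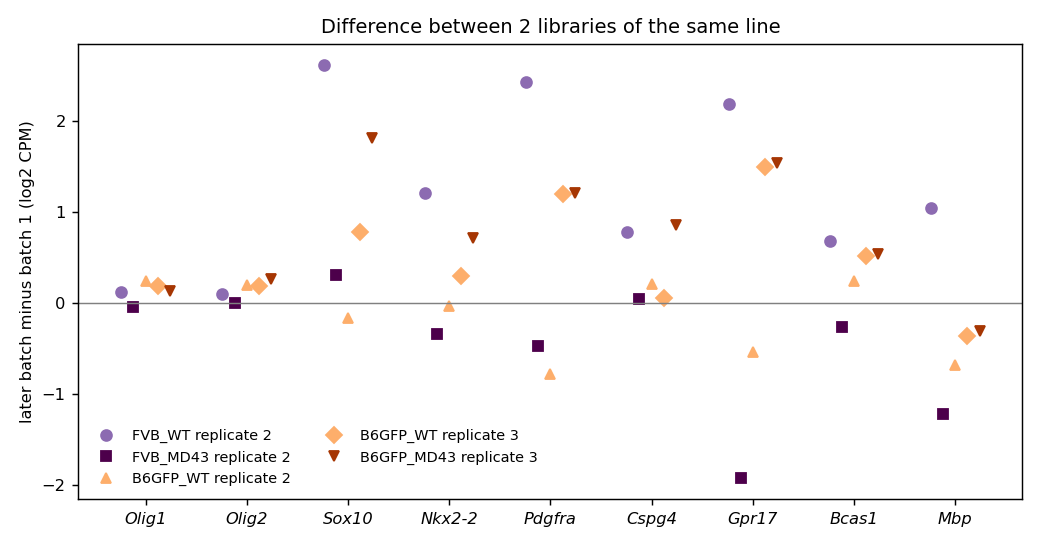
Difference between the 2 libraries of each of 5 lines (later batch minus batch 1, log2 CPM, vertical axis) for the 9 genes. Olig1 and Olig2 differ by at most 0.26, while Pdgfra, Sox10 and Gpr17 range from -1.93 to 2.62. The authors' batch correction constrains the directions.

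Some members rose and fell together over the 17 lines once the mean of each group was subtracted. Of 36 pairs 28 had a Pearson correlation above 0 and 8 had one above 0.5, or 4 without the 2 lines farthest from the median, all as a description with no test, over lines that share batches and libraries' depth. The highest was between Pdgfra and Gpr17 (r = 0.93, Spearman rho = 0.91, and r = 0.89 without the 2 lines farthest from the median). Pdgfra and Nkx2-2 followed a similar course (r = 0.66, rho = 0.77, 0.58 without those lines). Cspg4 and Bcas1 had r = 0.80 and rho = 0.58, but 0.44 without the 2 farthest lines, so that value leaned on them. Olig1 and Olig2, which are neighbours, had r = 0.56 and rho = 0.75, and r = 0.46 without the 2 lines farthest from the median of Olig1. Olig2 had r = -0.15 with Pdgfra and r = -0.17 with Gpr17. Gpr17 shares 188 exonic bases with Lims2 on the opposite strand, and Pdgfra shares 456 exonic bases with Gm42802, also on the opposite strand.

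**Figure D5:**
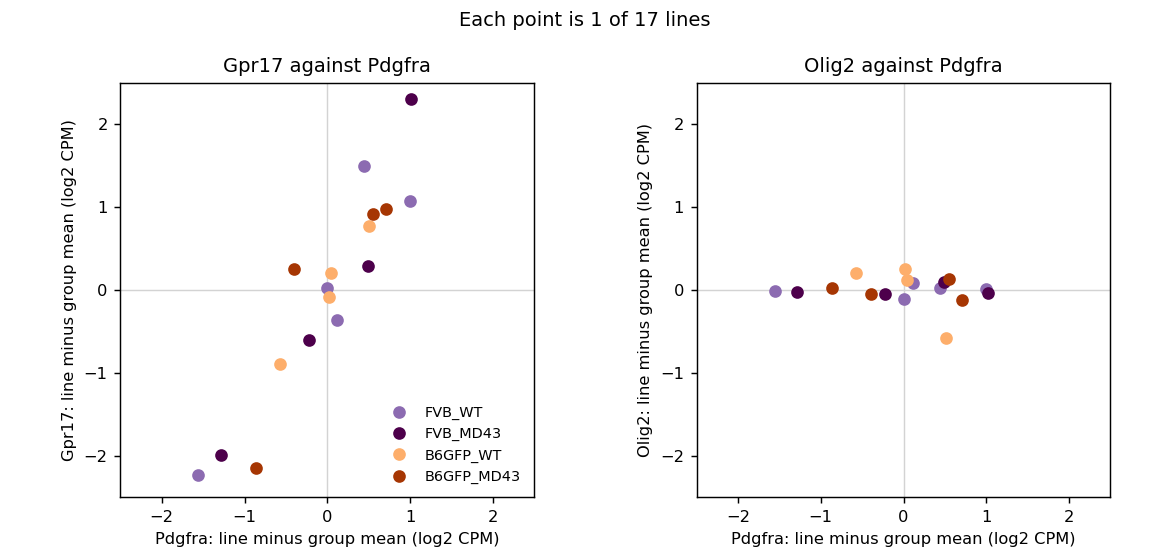
Deviation of each of 17 lines from its group mean (log2 CPM), for Gpr17 against Pdgfra (left) and Olig2 against Pdgfra (right), with colours marking the 4 groups. Gpr17 rises with Pdgfra (r = 0.93), while Olig2 stays near 0 over the whole range of Pdgfra (r = -0.15) apart from 1 line of B6GFP_WT.

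The genes most like each member over the 17 lines were searched among 12308 genes, again with group means subtracted. They were Bak1 (r = 0.91), Kcnv1 (0.90) and Zcchc24 (0.87) for Olig1, and Entpd4 (0.97) and Entpd4b (0.95) for Olig2, close copies between which reads may be split. Without the 2 farthest lines these Olig2 values were 0.86 and 0.80. For Pdgfra they were Pstpip2 (0.91), Sgk3 (0.90) and Kank1 (0.89), and for Nkx2-2 Ak1 (0.94), Kcnj16 (0.94) and Zfp979 (0.93). Cspg4 was closest to Fyn (0.92), a kinase with a known role in myelination, Neto1 (0.88) and Bbs9 (0.87), and Bcas1 to Kcnc4 (0.90), Sparcl1 (0.90) and Igfbp2 (0.90). Sox10, Gpr17 and Mbp were left out of this search because a group mean was below 1 CPM.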

How the data were processed

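RNA was measured by sequencing of poly(A) libraries made from 100 ng of total RNA. Per the submitters' processing notes, bcl2fastq, Trim Galore 0.4.4, HISAT2 2.0.5 and limma 3.40.6 were used with GRCm38.p6. The deposited values are log2 CPM per gene, from which the authors had removed batch effects. Whole-read steps gave the relative depth of libraries but not their totals, so no counting interval is given. All columns were mapped to a sample (0 were not), and 2 that equalled the mean of their group mates within 1e-06 were left out. The other 22 were fitted in R 4.3.3 with limma 3.58.1, with group and batch as terms, quality weights per library (0.101 to 4.9), a mean-variance trend and the line as a correlated block (consensus correlation 0.0827, 16 residual degrees of freedom), and p-values were adjusted by the method of Benjamini and Hochberg over 14922 genes, with a threshold of 0.05. The script was tested on simulated data. Fitted changes weight libraries unequally and so differ from differences of group means. The members, lists and markers were chosen with earlier results of these data known. The named genes were the members, up to 5 list genes with the smallest p in each strain comparison, and the 3 genes most like each member. Some of the genes this rule names are not reported here. Alternatives left out each line in turn, the quality weights or the low genes (under 1 CPM in all but fewer than 4 libraries), averaged each line, centred each library, used log2(CPM + 1) or all 24 columns, or added a replicate block. Same-numbered lines of the 2 genotypes are separate lines. Figures were drawn with matplotlib 3.10.9.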

Additional observations from a re-analysis of the deposited data

Results flagged for a closer look

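In 5 of 36 combinations of gene and group a single library lay far from its group mates by Dixon's test, where chance alone gives about 1 in 20. The FVB_WT replicate 2 library in batch 2 had Bcas1 at 6.54 log2 CPM, against 5.65 to 5.85 in its group, and Sox10 at 3.35, against -0.59 to 0.76. The B6GFP_MD43 replicate 2 library in batch 3, which also had the high neuronal markers, had Mbp at -0.67, against -4.25 to -3.43. Olig2 was 8.59 in B6GFP_WT replicate 4 in batch 3, against 9.29 to 9.52, and 9.18 in FVB_MD43 replicate 1 in batch 1, against 9.03 to 9.06.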

How the results depend on the processing

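Of the members' fitted changes over all alternatives, 1013 kept their direction and side of the threshold, 92 changed sign, 9 came to pass and 11 no longer passed, and all 248 values of the named list genes kept theirs. Of 125 member counts 123 stayed within 1.5 times. Without quality weights the number of members passing between strains fell to 2 in wild type and 2 in MommeD43. With all 24 columns 9 of 9 passed in MommeD43, a fit in which a copied column had a weight of 805. Causes were not tested. Depth was lowest in batch 2, and group means below 1 CPM (Mbp, Gpr17 and Sox10 in B6GFP, and Matn4, Myrf and Mag as given above) give no reliable fold.

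None of the changes whose sign turned passed the test, before or after. In FVB, MommeD43 minus wild type turned without quality weights for Cspg4 (-0.055), Gpr17 (-0.25) and Bcas1 (-0.11), with 1 value per line for Gpr17 (-0.29) and Bcas1 (-0.037), with centred libraries for Bcas1 (-0.0069), with all 24 columns for Gpr17 (-0.28) and Bcas1 (-0.094), and with genes above 1 CPM for Nkx2-2 (0.0014). Without the batch 2 library of FVB_WT replicate 2, a setting chosen after seeing the data, Pdgfra was 0.19 and Nkx2-2 0.13. In B6GFP it turned without weights for Olig2 (0.13) and Mbp (0.11), with 1 value per line for Olig1 (-0.078) and with 24 columns for Olig2 (0.067). Between strains in wild type Pdgfra was -0.0056 with 1 value per line and Nkx2-2 -0.0024 on the log2(CPM + 1) scale and -0.014 with 24 columns, and in MommeD43 Pdgfra was 0.053 with 1 value per line and Nkx2-2 0.0081 with centred libraries. The difference between strains in the MommeD43 effect turned for Olig2 without weights (0.13) and with 24 columns (0.032) and for Pdgfra with 1 value per line (0.058).

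Same-numbered lines of the 2 genotypes had correlations of -0.48 to 0.14, and 2 of 8 matched best with their own number. These are correlations of deviations from means of few lines. They cannot decide whether the replicate numbers pair the lines, and the main fit did not pair them. With the replicate block, MommeD43 minus wild type was -0.020 for Cspg4, -0.32 for Sox10, -0.45 for Gpr17 and -0.10 for Bcas1 in FVB, and 0.011 for Olig2 and 0.0038 for Bcas1 in B6GFP. Between strains in wild type the block gave -0.28 for Pdgfra, -0.21 for Nkx2-2 and -1.10 for Sox10, which then passed (adjusted p = 0.00296), and the difference of effects was 0.044 for Olig1, 0.026 for Pdgfra and 0.11 for Bcas1. The block moved no count of members by over 1.5 times.

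Leaving out 1 line at a time gave changes on both sides of 0 in FVB MommeD43 for Olig2 (-0.00055 to 0.13), Pdgfra (-0.25 to 0.36), Cspg4 (-0.044 to 0.35), Nkx2-2 (-0.25 to 0.12), Gpr17 (-0.22 to 0.28) and Bcas1 (-0.029 to 0.11), and in B6GFP MommeD43 for Olig1 (-0.084 to 0.27), Olig2 (-0.073 to 0.049) and Nkx2-2 (-0.33 to 0.098). Between strains it did so for Pdgfra (-0.020 to 0.20) and Nkx2-2 (-0.21 to 0.35) in wild type and for Pdgfra (-0.53 to 0.19) and Nkx2-2 (-0.17 to 0.16) in MommeD43, and for the difference of effects in Olig1 (-0.16 to 0.20), Olig2 (-0.14 to 0.014), Pdgfra (-0.65 to 0.023) and Nkx2-2 (-0.30 to 0.16). Without FVB_MD43 replicate 2 the FVB changes of Cspg4, Olig2 and Olig1 came nearest to passing, at 0.35, 0.13 and 0.22 (adjusted p = 0.0571, 0.0685 and 0.0787). The largest library weight in that fit was 26.5, against 4.9 in the main fit. It left FVB_MD43 replicate 1, flagged above for its high Olig2, as the only library of its group in batch 1.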
